A study of Schizosaccharomyces pombe with 6 samples.

Results

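The mRNAs of pyruvate decarboxylase (*pdc101*, *pdc102*, *pdc201* and *pdc202*) and alcohol dehydrogenase (*adh1* and *adh4*) were followed in *aal1* pull-downs (ChIRP-seq) of the fission yeast *Schizosaccharomyces pombe*. The 6 genes were taken by systematic identifier from the 7001 identifiers of the count table. The set was selected on the low values of *pdc202* in the pull-downs from cells that overexpress *aal1*. Those values, and every comparison with those pull-downs, are therefore given as a description with no test.

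Crosslinked cells on Day 6 of stationary phase were incubated with biotinylated antisense oligonucleotides against the long non-coding RNA *aal1*, and the RNA held on streptavidin beads was sequenced, with 2 libraries per strain. The *aal1-pOE* cells carry *aal1* on a plasmid behind *P41nmt1*, a promoter that thiamine represses, in a 972h-/leu1-32 background. The wild-type cells are 972h-, and in the *aal1∆* cells *aal1* was removed from 972h- with CRISPR-Cas9. All libraries come from pull-downs: no library of input RNA and none of cells with an empty plasmid was analysed here, so a lower recovery in the pull-down and a lower amount of the mRNA in the cells cannot be told apart, and neither can the plasmid, the *leu1-32* background and the extra *aal1*. The study made 2 independent deletion strains, and the labels do not say which one was used. The deletion also takes most of the antisense RNA *SPNCRNA.401*.

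Libraries held between 40653 and 175263 counts, the smallest and the largest both from *aal1∆* cells. Between 42.4 and 65.6% of the counts lay on nuclear mRNAs, and between 25.7 and 54.4% on rRNA. The label check held: *aal1* had 9540 and 20832 counts in *aal1-pOE* libraries, 28 and 147 in wild-type libraries, and 0 and 0 in *aal1∆* libraries. Of the antisense *SPNCRNA.401*, 630 and 846 counts were found in *aal1-pOE* libraries and 0 in each wild-type and *aal1∆* library. Every count of a member in the *aal1∆* libraries was thus recovered from cells in which no *aal1* was counted.

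Pyruvate decarboxylase takes carbon dioxide from pyruvate, the end product of glycolysis, and leaves acetaldehyde. It needs thiamine pyrophosphate, the active form of vitamin B1. Alcohol dehydrogenase then reduces acetaldehyde to ethanol and turns NADH back into NAD+, which lets glycolysis run on without respiration. Yeasts that ferment glucose make both enzymes in large amounts, and in fission yeast *adh1* encodes the main cytosolic alcohol dehydrogenase and *adh4* a mitochondrial one.

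Because related genes can share reads, the mRNAs were first compared by sequence. The segment of 96 bases that encodes the thiamine pyrophosphate-binding motif (found as GDG followed by NN in the translated reading frame) is shown for the 4 pyruvate decarboxylase genes, from the RefSeq assembly ASM294v3, 5′ to 3′ on the coding strand, with capitals at each base that differs from *pdc201*. Within this segment *pdc202* differed from *pdc201* at 37 of the 96 bases, *pdc101* at 35 and *pdc102* at 39. The segments lie at chrI:3161577-3161672 (*pdc201*, plus strand), chrI:586941-587036 (*pdc202*, plus strand), chrI:102117-102212 (*pdc101*, minus strand) and chrI:5554155-5554250 (*pdc102*, plus strand).
pdc201: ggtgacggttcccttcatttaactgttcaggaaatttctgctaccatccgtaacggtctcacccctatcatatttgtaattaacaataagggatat
pdc202: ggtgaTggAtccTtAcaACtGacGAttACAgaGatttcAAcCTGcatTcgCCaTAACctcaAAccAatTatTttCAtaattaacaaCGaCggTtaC
pdc101: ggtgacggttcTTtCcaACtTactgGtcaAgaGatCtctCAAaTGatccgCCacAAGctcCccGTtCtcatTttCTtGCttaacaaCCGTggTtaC
pdc102: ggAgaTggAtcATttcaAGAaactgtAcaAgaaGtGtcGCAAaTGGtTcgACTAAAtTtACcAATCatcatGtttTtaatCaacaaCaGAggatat

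Over the whole coding sequences, *pdc201* and *pdc202* were identical at 66.0% of 1663 aligned positions, and the other pairs of pyruvate decarboxylase genes at 62.6 to 64.8%. The longest identical run was 19 bases between the *pdc201* and *pdc202* transcripts, and 20 bases (*pdc101* and *pdc102*) over all pairs. *adh1* and *adh4* were identical at 65.1% of 937 aligned positions, with a longest run of 10 bases. No pair shared any stretch of 67 bases, the length of a read after trimming, so no full-length read matches a pair of these mRNAs exactly. A non-coding RNA is annotated on the opposite strand of each of the 6 genes. The one opposite *pdc202*, *SPNCRNA.662*, covers all 1899 bases of it and had 4 counts in *aal1-pOE* replicate 1 and 0 in the other libraries. *SPNCRNA.1710*, opposite *adh1*, had 2 counts in wild-type replicate 1 and 0 elsewhere.

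The *pdc202* mRNA was also searched for stretches that pair with *aal1* or resemble it. Its longest run complementary to *aal1* had 11 bases, at positions 1636 to 1646 of the transcript and 314 to 324 of *aal1*, and is printed in capitals with the bases around it (chrI:587226-587248, plus strand, ASM294v3).
pdc202 near its longest aal1-complementary run: gtagttGAGCTTGTAATgcctat
A complementary run at least as long occurred in 60.4% of the 1292 nuclear mRNAs that passed the filter on low counts. The run in *pdc201*, *pdc101*, *adh1* and *adh4* had 10 bases, a length reached by 91.3% of those mRNAs, and the one in *pdc102* had 13, reached by 10.5%. Identity to *aal1* itself, which a probe of 20 bases would bind, did not exceed 12 bases in any of the 6 mRNAs.

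Levels are given as CPM, the counts divided by the TMM-scaled library size (TMM CPM), and per kb of annotated transcript where different mRNAs are set side by side. *pdc201* (SPAC3G9.11c) encodes a pyruvate decarboxylase and had 8516 and 8088 TMM CPM per kb in *aal1-pOE* libraries, 8519 and 8400.0 in wild-type libraries, and 10351.5 and 7902 in *aal1∆* libraries. It ranked 1st among the 5111 nuclear mRNAs in every library, both by counts and by level per kb, including the libraries without *aal1*. *pdc101* (SPAC1F8.07c) came next, with 901 and 1247 TMM CPM per kb in *aal1-pOE* libraries, 839 and 989 in wild-type libraries, and 761 and 1233 in *aal1∆* libraries. Its strains overlapped.

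*adh1* (SPCC13B11.01) lay close to *pdc101*, with 1228 and 624 TMM CPM per kb in *aal1-pOE* libraries, 741 and 671 in wild-type libraries, and 825 and 933 in *aal1∆* libraries. *pdc202* (SPAC13A11.06) had 36.5 and 153 in *aal1-pOE* libraries, 239 and 269.9 in wild-type libraries, and 855 and 257 in *aal1∆* libraries. *adh4* (SPAC5H10.06c) had 15.4 and 203 in *aal1-pOE* libraries, 101 and 93.0 in wild-type libraries, and 25.4 and 146 in *aal1∆* libraries. The 2 wild-type libraries were closest to each other for each of the 5 mRNAs, differing between 1.01-fold and 1.18-fold, while the 2 *aal1-pOE* libraries differed between 1.05-fold (*pdc201*) and 13.2-fold (*adh4*) and the 2 *aal1∆* libraries between 1.13-fold (*adh1*) and 5.76-fold (*adh4*).

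The mean level per kb over the 6 libraries ran from *pdc201* (8629 ± 879) through *pdc101* (995 ± 204), *adh1* (837 ± 221), *pdc202* (302 ± 285) and *adh4* (97.4 ± 71.5) to *pdc102*, which had no count (SD, n = 6). Among the mRNAs with counts, only *pdc201* stood clear of its neighbour in every library. *pdc101* was above *adh1* in 4 of 6 libraries, *adh1* above *pdc202* in 5 of 6, and *pdc202* above *adh4* in 5 of 6. The order of these neighbours thus changed between libraries. Both wild-type libraries and *aal1∆* replicate 2 kept the order of the means. The SD over the 6 libraries mixes strains and replicates. The level of *pdc202* rests on a transcript annotated without a 5′ UTR, so its length may be too short. *pdc102* (SPAC186.09) had 0 counts in all 6 libraries, which allows up to 19.1 TMM CPM in the deepest library and 73.3 in the shallowest (3 counts, counting error only).

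**Figure D1:**
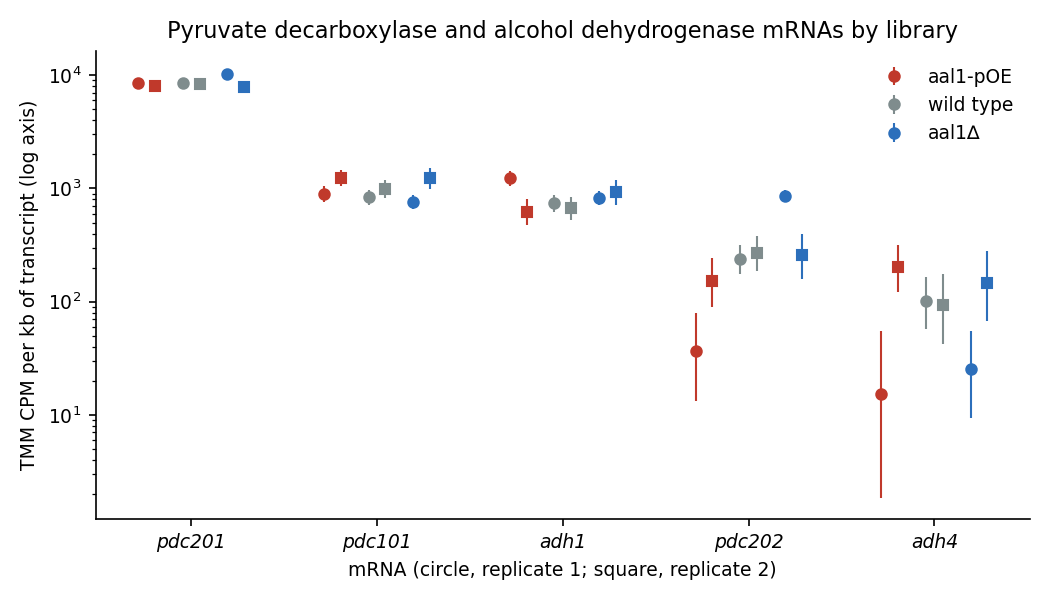
TMM CPM per kb of transcript (log axis) for the 5 mRNAs with counts, in the libraries of *aal1-pOE*, wild-type and *aal1∆* cells (points, 1 per library, with 95% Poisson intervals of the counts). *pdc201* lies above every other mRNA in each library, and the *pdc202* points of *aal1-pOE* lie lowest for that mRNA.

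*pdc202* was counted 6 and 18 times in *aal1-pOE* libraries, 48 and 33 times in wild-type libraries, and 255 and 20 times in *aal1∆* libraries. Scaled for depth, this gave 69.3 and 289.6 TMM CPM in *aal1-pOE* libraries, 454 and 513 in wild-type libraries, and 1624 and 489 in *aal1∆* libraries. Both *aal1-pOE* libraries lay below every library of the other strains, the wild-type libraries were alike, and *aal1∆* replicate 1 stood above all others. *aal1∆* replicate 2 fell between the wild-type libraries. The means were 179 ± 156 TMM CPM in *aal1-pOE*, 483 ± 41.0 in wild type and 1056 ± 803 in *aal1∆* (SD, n = 2 each).

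The log2 fold change of *pdc202* was -2.65 (SE 0.56) in *aal1-pOE* over *aal1∆* and -1.48 (SE 0.57) in *aal1-pOE* over wild type. These are the values on which the set was selected, and no p-value is read from them. Lower values in both *aal1-pOE* libraries than in both *aal1∆* libraries occurred in 17.1% of all RNAs tested, and in 16.5% against both wild-type libraries. The fold change of *pdc202* moved with single libraries: over *aal1∆* it was -1.49 when *aal1∆* replicate 1 was left out and -3.95 when *aal1-pOE* replicate 2 was. Over wild type it was -0.76 when *aal1-pOE* replicate 1 was left out.

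**Figure D2:**
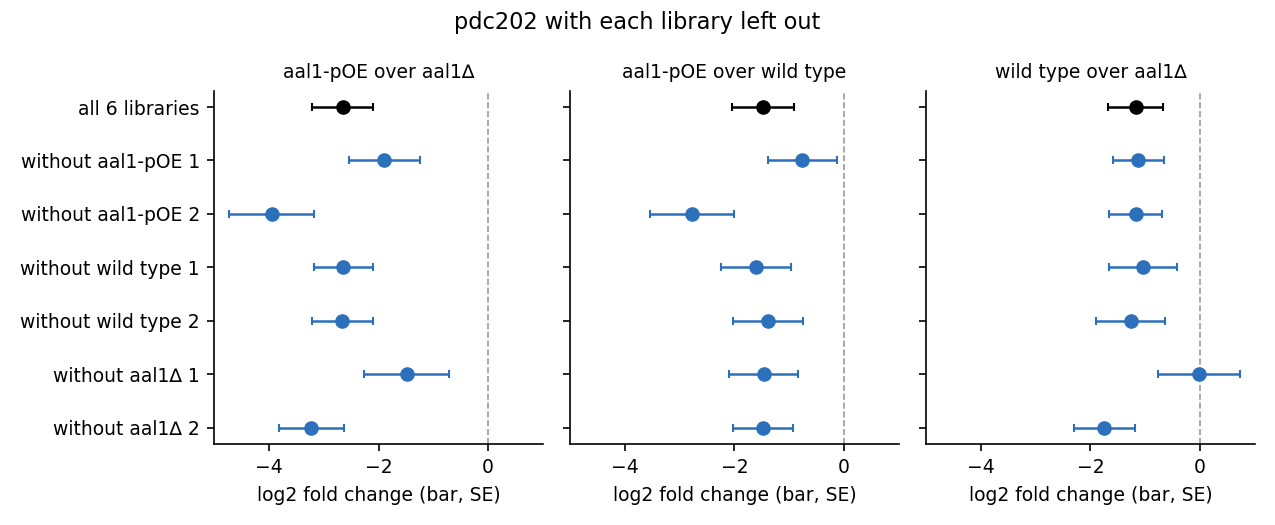
Log2 fold change of *pdc202* (points, with SE bars) in 3 comparisons, with all 6 libraries (black) and with each library left out in turn (blue). Wild type over *aal1∆* lies at -0.02 without *aal1∆* replicate 1 and at -1.75 without *aal1∆* replicate 2.

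A ratio within a library does not depend on its scaling. Set against *pdc201*, the abundant mRNA of the same family, *pdc202* had 0.334 and 1.47 counts per 100 counts of *pdc201* in *aal1-pOE* libraries, 2.19 and 2.51 in wild-type libraries, and 6.44 and 2.54 in *aal1∆* libraries. As a share of all pyruvate decarboxylase counts, *pdc202* made up 0.308% (95% exact binomial interval 0.113 to 0.669) and 1.30% (0.770 to 2.04) in *aal1-pOE* libraries, 1.995% (1.47 to 2.64) and 2.24% (1.55 to 3.14) in wild-type libraries, and 5.75% (5.08 to 6.47) and 2.22% (1.36 to 3.404) in *aal1∆* libraries. The interval of *aal1∆* replicate 1 lay above those of all other libraries, and that of *aal1∆* replicate 2 overlapped both wild-type intervals. The interval of *aal1-pOE* replicate 2 also overlapped both wild-type intervals and that of *aal1∆* replicate 2. Only the interval of *aal1-pOE* replicate 1 lay below those of all other libraries. These intervals cover counting error only.

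*pdc201* itself made up between 87.3 and 92.1% of the pyruvate decarboxylase counts, and *pdc101* between 5.07 and 10.5%. *pdc101* had 8.18 and 11.9 counts per 100 counts of *pdc201* in *aal1-pOE* libraries, 7.62 and 9.1 in wild-type libraries, and 5.68 and 12.1 in *aal1∆* libraries. *adh4* was 1.16 and 23.5% of the alcohol dehydrogenase counts in *aal1-pOE* libraries, 11.3 and 11.5% in wild-type libraries, and 2.82 and 12.9% in *aal1∆* libraries. For *adh4* the 2 libraries of *aal1-pOE* and of *aal1∆* thus lay on either side of the wild-type pair, and its counts were between 2 and 19.

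**Figure D3:**
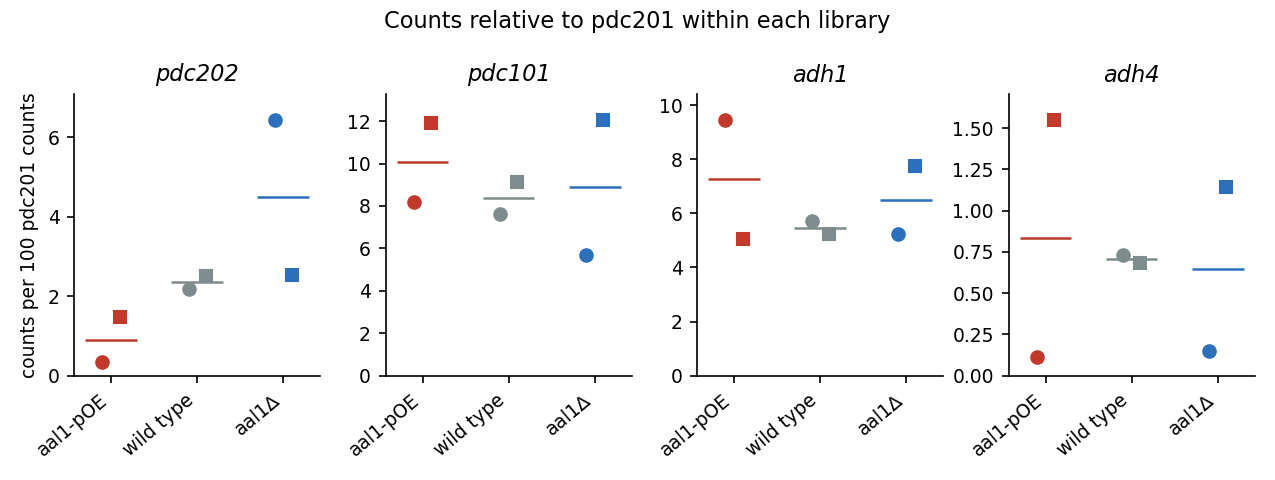
Counts per 100 *pdc201* counts within each library for *pdc202*, *pdc101*, *adh1* and *adh4* (points, 1 per library; line, mean of the strain). *pdc202* spans 0.334 to 1.47 in *aal1-pOE*, 2.19 to 2.51 in wild type and 2.54 to 6.44 in *aal1∆*.

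Wild type against *aal1∆* is the comparison that asks which RNAs the pull-down recovers with native amounts of *aal1*, and it did not choose the set, although it shares the *aal1∆* libraries with the comparison that did. Of the 6 mRNAs, 5 passed the filter on low counts, and 0 of these 5 passed the edgeR quasi-likelihood test at an adjusted p of 0.05. Over all 1329 RNAs tested, 0.150% passed. At an unadjusted p under 0.05 the count was 1 of 5, beside 2.48% of all RNAs tested, and DESeq2 called 0 of 5, beside 0.150%. The median log2 fold change was -0.11 over the 5 mRNAs and 0.001 over all RNAs tested.

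The mRNA past the unadjusted threshold was *pdc202*, with a log2 fold change of -1.18 (SE 0.51, 95% interval -2.19 to -0.16, unadjusted p = 0.0236, adjusted p = 0.999 with edgeR). The SE, interval and p rest mostly on the spread shared over all RNAs tested (70.4 prior against 3 residual degrees of freedom). They therefore reflect little of the spread of *pdc202* itself. Without *aal1∆* replicate 1 the log2 fold change of *pdc202* was -0.02 and without *aal1∆* replicate 2 it was -1.75. The difference between wild type and *aal1∆* for *pdc202* thus rests on 1 library.

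*pdc201* had 20736 and 19695 TMM CPM in *aal1-pOE* libraries, 20745 and 20454 in wild-type libraries, and 25206 and 19241 in *aal1∆* libraries. Its wild-type level lay between those of the *aal1∆* libraries, and its log2 fold change in wild type over *aal1∆* was -0.11 (SE 0.52, 95% interval -1.15 to 0.93). *pdc101* had 1697 and 2349 TMM CPM in *aal1-pOE* libraries, 1581 and 1864 in wild-type libraries, and 1433 and 2323 in *aal1∆* libraries. The *aal1∆* libraries again enclosed the wild-type pair, with a log2 fold change of -0.11 (SE 0.39, 95% interval -0.89 to 0.67). In *aal1-pOE* over *aal1∆* the log2 fold change was -0.14 (SE 0.52) for *pdc201* and 0.12 (SE 0.39) for *pdc101*, and over wild type it was -0.03 (SE 0.52) for *pdc201* and 0.23 (SE 0.39) for *pdc101*.

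*adh1* had 1963 and 998 TMM CPM in *aal1-pOE* libraries, 1184 and 1072 in wild-type libraries, and 1318 and 1491 in *aal1∆* libraries. Both wild-type libraries lay below both *aal1∆* libraries, as did 16.0% of all RNAs tested, and the log2 fold change was -0.31 (SE 0.40, 95% interval -1.11 to 0.49). The *aal1-pOE* libraries were the highest and the lowest of the 6. *adh4* had 23.1 and 306 TMM CPM in *aal1-pOE* libraries, 151 and 139.8 in wild-type libraries, and 38.2 and 220.0 in *aal1∆* libraries, and a log2 fold change of 0.35 (SE 1.10, 95% interval -1.85 to 2.55) in wild type over *aal1∆*. Without *aal1∆* replicate 1 this value of *adh4* was -0.59, and without *aal1∆* replicate 2 it was 1.90. In *aal1-pOE* over *aal1∆* the log2 fold change was 0.09 (SE 0.40) for *adh1* and 0.48 (SE 1.11) for *adh4*, and over wild type it was 0.40 (SE 0.40) for *adh1* and 0.13 (SE 1.07) for *adh4*. Single libraries set these signs: without *aal1-pOE* replicate 1 *adh1* was at -0.47 over *aal1∆* and -0.21 over wild type, and without *aal1-pOE* replicate 2 *adh4* was at -2.27 over *aal1∆* and -2.59 over wild type. The adjusted p of *pdc101*, *pdc201*, *adh1* and *adh4* in wild type over *aal1∆* was 0.999 in edgeR.

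**Figure D4:**
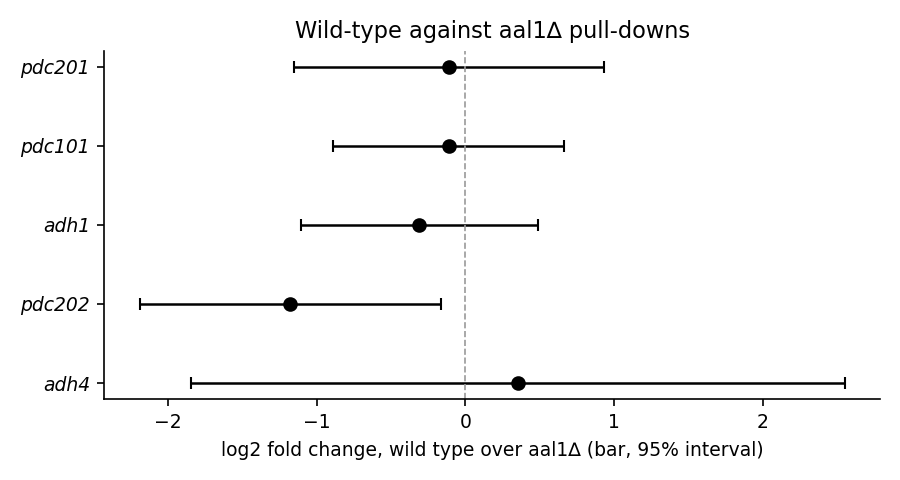
Log2 fold change in wild type over *aal1∆* for the 5 mRNAs tested (points, with 95% intervals). The interval of *pdc202* runs from -2.19 to -0.16 and those of the other mRNAs include 0.

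Together the 6 mRNAs took 4.27 and 3.93% of the nuclear mRNA counts in *aal1-pOE* libraries, 4.34 and 4.22% in wild-type libraries, and 4.95 and 4.28% in *aal1∆* libraries. The wild-type mean was 4.28 ± 0.084% and the *aal1∆* mean 4.61 ± 0.48% (SD, n = 2 each), a difference of -0.335 percentage points (exact two-sided permutation p = 0.667). The difference was 0.00252 without *aal1∆* replicate 1 and -0.672 without *aal1∆* replicate 2, and with all counts of the library as the denominator it was -0.206 (exact two-sided permutation p = 1). With 2 libraries against 2, no exact test can go below 0.333. *pdc201* carried most of the sum: without it the 5 others took 0.655 and 0.656% in *aal1-pOE* libraries, 0.606 and 0.630% in wild-type libraries, and 0.738 and 0.814% in *aal1∆* libraries. The difference between wild type and *aal1∆* was then -0.158 percentage points (exact two-sided permutation p = 0.333, the smallest this design allows). In this sum *pdc202* took 0.271% in *aal1∆* replicate 1 and 0.0880% in *aal1∆* replicate 2, beside 0.0817 and 0.0900% in wild-type libraries. *pdc101* took 0.240 and 0.418% in *aal1∆* libraries, beside 0.284 and 0.327% in wild-type libraries. For *adh1* the shares were 0.220 and 0.268% in *aal1∆* libraries, beside 0.213 and 0.188% in wild-type libraries. For *adh4* they were 0.00639 and 0.0396%, beside 0.0272 and 0.0245%.

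The genes on either side of the pathway were described from lists of 37 genes in 5 groups, of which 28 were tested. In wild type over *aal1∆*, 0 of the 28 passed the edgeR test in either direction, beside 0.150% of all RNAs tested, and DESeq2 called 0, beside 0.150%. At an unadjusted p under 0.05 the count was 1 of 28, beside 2.48% of all RNAs tested. All 13 mRNAs of glycolysis, which delivers pyruvate, were tested, with a median log2 fold change of 0.07 and a range of -0.62 to 1.29. The smallest p-values there belonged to *tpi1* (triose phosphate isomerase, 1.29, SE 0.70) and the hexokinase genes *hxk2* (0.41, SE 0.38) and *hxk1* (-0.62, SE 0.64). *tpi1* had 114 and 621 TMM CPM in wild-type libraries and 159 and 122 in *aal1∆* libraries. Wild-type replicate 1 thus lay below both *aal1∆* libraries. Of the pyruvate dehydrogenase complex, which takes pyruvate into the mitochondrial acetyl-CoA pool in competition with pyruvate decarboxylase, 3 of 5 mRNAs were tested. Their log2 fold changes were -0.59 (SE 0.96) for *pda1*, 0.08 (SE 0.49) for *dld1* and 0.12 (SE 0.72) for *lat1*.

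Of other enzymes of alcohol, aldehyde and acetate metabolism, 4 of 6 were tested, with a median log2 fold change of 0.23. Values were -0.78 (SE 0.45) for *fmd2*, 1.74 (SE 1.32) for *acs1* (acetyl-CoA synthetase) and 0.50 (SE 0.94) for *adh8*. *acs1* had only 11 and 1 counts in *aal1∆* libraries, beside 18 and 12 in wild-type libraries. Of glycerol metabolism, the other outlet for NADH, 4 of 6 were tested, with a median of 0.03. *dak2*, a dihydroxyacetone kinase, was the 1 mRNA past the unadjusted threshold, with 127 and 322 TMM CPM in *aal1-pOE* libraries, 473 and 839 in wild-type libraries, and 172 and 391 in *aal1∆* libraries, and a log2 fold change of 1.30 (SE 0.60, edgeR adjusted p = 0.999). *gpd1* (glycerol-3-phosphate dehydrogenase) had -0.78 (SE 0.45) and *dak1* 0.19 (SE 0.40). Of 7 thiamine genes, 4 were tested, with a median of -0.03. Values were -0.50 (SE 0.42) for *thi2*, 0.22 (SE 0.63) for *thi9* and -0.03 (SE 0.41) for *nmt1*. The promoter of *nmt1* gave rise to *P41nmt1*.

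The RNAs whose log2 TMM CPM followed that of *pdc202* most closely over the 6 libraries, by Pearson's r and outside the 6 genes, were *SPAC32A11.02c* (0.97), *ntp1* (0.97), *tcb2* (0.95), *ssc1* (0.94) and *gal1* (0.93). *ntp1* encodes a trehalase, *tcb2* a tricalbin that tethers the endoplasmic reticulum to the plasma membrane, *ssc1* a chaperone and *gal1* a galactokinase. For *adh1* they were *kin1* (0.97), a kinase, *mms19* (0.94), *rgp1* (0.94), *arg1* (0.94), an aminotransferase of arginine synthesis, and *SPBC887.12* (0.92), a P-type ATPase. These are the highest values among all RNAs tested and carry no test. They rest on 6 libraries of unequal depth, and all RNAs of a library are scaled by the same library size.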

How the data were processed

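The authors mapped 75-base read pairs with HISAT2 2.2.1 and ran HTSeq 0.12.3 to obtain raw counts for each annotated gene, which are the deposited values used here. The submitters' processing notes also name SAMtools 1.14, FastQC 0.11.2, deepTools 3.5.1 and edgeR 3.32.1. HISAT2 was run in its forward-reverse mode and HTSeq in its reverse mode, which name opposite strands, so counts of a gene and of its antisense partner are taken as the table names them. The kit adds molecular indices, and no collapsing of duplicates is described, so counts may not be independent molecules. The sources used here give neither the genome build nor the annotation release. Names, lengths and sequences come from RefSeq ASM294v3, to which 6852 of 7001 identifiers matched.

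Counts were fitted with edgeR 4.0.16 (R 4.3.3) over all 6 libraries: TMM, filterByExpr (1329 RNAs), glmQLFit and glmQLFTest, Benjamini-Hochberg adjustment over all RNAs tested, threshold 0.05. DESeq2 1.42.0 was an alternative, as were other scalings and filters, a replicate block and leaving out each library. The fit was also run on counts simulated at its own fitted dispersion, which cannot show whether the model holds for these libraries. Replicates were grown and processed independently, per the study's methods, and differed beyond counting noise. The members, gene lists and tests were chosen with earlier results of these data known. Named genes are the 6 members, the 3 genes of each list with the smallest p-values in wild type over *aal1∆*, and the 5 RNAs most like *pdc202* and *adh1*. Poisson and binomial intervals, and the limits for *pdc102*, cover counting error only. The intervals of log2 fold changes come from the edgeR fit and include its estimate of the spread between libraries.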

Additional observations from a re-analysis of the deposited data

How the results depend on the processing

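The count of members called in wild type over *aal1∆* was 0 under every alternative run. With all libraries kept, the 8 alternatives moved the log2 fold change of *pdc202* in wild type over *aal1∆* between -1.25 and -1.08 (edgeR or DESeq2 adjusted p between 0.986 and 1), in *aal1-pOE* over *aal1∆* between -2.82 and -2.56, and in *aal1-pOE* over wild type between -1.71 and -1.47. Adding the replicate number as a block gave -1.16, -2.64 and -1.47 for *pdc202* in the same order of comparisons, and 0 members called in wild type over *aal1∆*. For *adh4* the block gave 0.88 in wild type over *aal1∆*, 0.21 in *aal1-pOE* over *aal1∆* and -0.67 in *aal1-pOE* over wild type. Deviations of same-numbered libraries correlated at 0.089 (*aal1-pOE* and wild type), -0.052 (*aal1-pOE* and *aal1∆*) and 0.047 (wild type and *aal1∆*). Noise at low counts weakens such correlations, so they cannot decide whether the numbers pair the libraries.

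With 1 library left out, the log2 fold change of *pdc202* ran from -1.75 to -0.02 in wild type over *aal1∆*, from -3.95 to -1.49 in *aal1-pOE* over *aal1∆*, and from -2.78 to -0.76 in *aal1-pOE* over wild type. In wild type over *aal1∆*, the sign turned for *pdc101* (range -0.43 to 0.26, and 0.05 without wild-type replicate 1), *pdc201* (-0.29 to 0.098, the highest without *aal1∆* replicate 1) and *adh4* (-0.59 to 1.90, the lowest without *aal1∆* replicate 1). The difference in summed share between wild type and *aal1∆* ran from -0.672 to 0.00252 percentage points, the highest without *aal1∆* replicate 1. Over both comparisons with *aal1-pOE*, leaving out 1 library gave values on both sides of 0 for *pdc101*, *pdc201*, *adh1* and *adh4*. With library sizes alone as scaling, *pdc101* (-0.09) and *adh1* (-0.03) were below 0 in *aal1-pOE* over *aal1∆*, and *adh4* (-0.19) in *aal1-pOE* over wild type. Per kb, *pdc202* made up 2.64% of the pyruvate decarboxylase total in wild type, against 2.12% by counts. *adh4* was not tested under the filter of 10 counts in 4 libraries. The 6 counts of *pdc202* in *aal1-pOE* replicate 1 have a 95% Poisson interval of 2.202 to 13.1.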
